A study of Mus musculus with 20 samples.

Results

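Small RNA sequencing of papillomas was compared with that of healthy skin in FVB/N mice, over every annotated small RNA class, with the mature miRNAs and the other classes tested apart. The comparison takes the 5 libraries that the labels call papilloma (numbers 1, 3, 4, 5 and 6) and the 5 they call healthy skin (numbers 2, 3, 4, 5 and 7), out of 20 libraries in the series. The table holds 2127 features. Of these, 1137 are mature miRNAs, of which 293 were abundant enough to be tested, and 990 belong to other classes, of which 277 were tested.

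Papillomas are benign, stalked tumours of the epidermis. They came from mice given DMBA, a mutagen, and PMA, a phorbol ester that drives the growth of mutated cells, whereas healthy skin received acetone. Treatment and lesion therefore change together and cannot be told apart here. The labels call the samples biopsies of skin and do not state that each came from a mouse of its own, so each p-value reflects the spread among these biopsies, which may be technical. FVB/N is an inbred albino strain used for this tumour model.

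A miRNA is a short RNA that guides Argonaute proteins to messenger RNAs, mostly through its seed, bases 2 to 8 from the 5′ end, and lowers their output. Each hairpin precursor can give a 5p and a 3p strand. The other classes in such a library are pieces or short forms of transfer RNA (tRNA), which carries amino acids, of small nucleolar RNA (snoRNA), which guides chemical modification of ribosomal RNA (rRNA), and of spliceosomal small nuclear RNA (snRNA). In skin, miR-205 and miR-203 mark keratinocytes, miR-143 and miR-145 smooth muscle, miR-1, miR-133 and miR-206 striated muscle, and miR-126 endothelium. In a biopsy, fewer cells of a type and less RNA per cell cannot be told apart.

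The sequences below belong to the miRNAs on which the results turn. They are RefSeq's mature miRNAs on GRCm38.p6, with the seed in capitals. The first group holds both strands of miR-21 and miR-31, miR-7a, miR-138 and the miR-18 and miR-19 pairs, which were higher in papilloma. The pairs differ only behind a shared seed.
miR-31-5p: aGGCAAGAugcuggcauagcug
miR-31-3p: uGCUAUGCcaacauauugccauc
miR-21-5p: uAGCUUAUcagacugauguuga
miR-21-3p: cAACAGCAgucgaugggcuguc
miR-7a-5p: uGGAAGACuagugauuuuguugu
miR-138-5p: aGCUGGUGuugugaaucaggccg
miR-18a-5p: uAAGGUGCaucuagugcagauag
miR-18b-5p: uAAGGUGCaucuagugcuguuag
miR-19a-3p: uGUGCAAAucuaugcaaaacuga
miR-19b-3p: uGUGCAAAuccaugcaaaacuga

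The next group holds miRNAs that were lower in papilloma and, for its shared seed, miR-193-3p, which was not called. It shows the shared seeds of miR-29, of miR-26, of miR-99 with miR-100, and of miR-193 and miR-193b, so that reads of near-identical members may have been shared or split between them.
miR-29a-3p: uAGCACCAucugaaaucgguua
miR-29b-3p: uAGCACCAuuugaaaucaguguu
miR-29c-3p: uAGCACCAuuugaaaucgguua
miR-26a-5p: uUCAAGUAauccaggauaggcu
miR-26b-5p: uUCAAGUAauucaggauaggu
miR-99a-5p: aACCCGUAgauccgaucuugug
miR-100-5p: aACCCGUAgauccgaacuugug
miR-193b-3p: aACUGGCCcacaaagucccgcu
miR-193-3p: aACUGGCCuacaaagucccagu
miR-133b-3p: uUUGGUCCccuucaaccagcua
miR-206-3p: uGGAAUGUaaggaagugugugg
miR-126-3p: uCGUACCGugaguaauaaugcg
miR-338-3p: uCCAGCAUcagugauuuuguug

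The last group is shown because its counts did not follow library depth in the same way. The 5p strand of miR-574 consists mostly of repeated ug pairs, while its 3p strand does not.
miR-574-5p: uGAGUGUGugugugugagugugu
miR-574-3p: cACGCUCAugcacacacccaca
miR-3473d: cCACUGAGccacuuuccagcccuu

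Depth differed between the groups. Mature miRNA counts ranged from 1060615 to 2370313 in papilloma and from 2884177 to 4921719 in healthy skin, so the ranges did not overlap, and depth and lesion cannot be told apart. Levels are given in CPM, the counts-per-million scale of mature miRNA counts, after TMM scaling on the 293 tested miRNAs, which all had a mean of at least 50 CPM over the series. A miRNA or other entry under that mean in 1 group was tested only through higher levels in other groups. Its change is then not independent support. For each miRNA the depth slope, the slope of log2 count on log2 library depth within the groups, was computed: it is near 1 where counts follow depth. It was under 0.5 for 53 of 293 miRNAs (median 0.84). When the scaling was computed on 850 miRNAs, including low ones, the log2 fold changes of the 293 lay lower by a median of 0.64, so that rises shrink and falls grow. Where this ends a call or turns a sign, the outcome of the scaling on 850 miRNAs is given beside the result, as a count for its list, or only in the last section.

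Papilloma differed from healthy skin in about every other miRNA tested. Of 293 miRNAs, 85 were higher (29.0%) and 60 were lower (20.5%), or 49.5% in all (edgeR quasi-likelihood test, Benjamini-Hochberg adjusted p under 0.05). The change was at least 2-fold for 60 of the higher and 26 of the lower ones. All 5 papilloma libraries lay above all 5 healthy ones for 58 miRNAs and below them for 44, together 34.8%. Scaled on 850 miRNAs, the same 293 held 33 higher and 134 lower calls. All 60 of the falls kept their call there, and 33 of the 85 rises did.

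**Figure D1:**
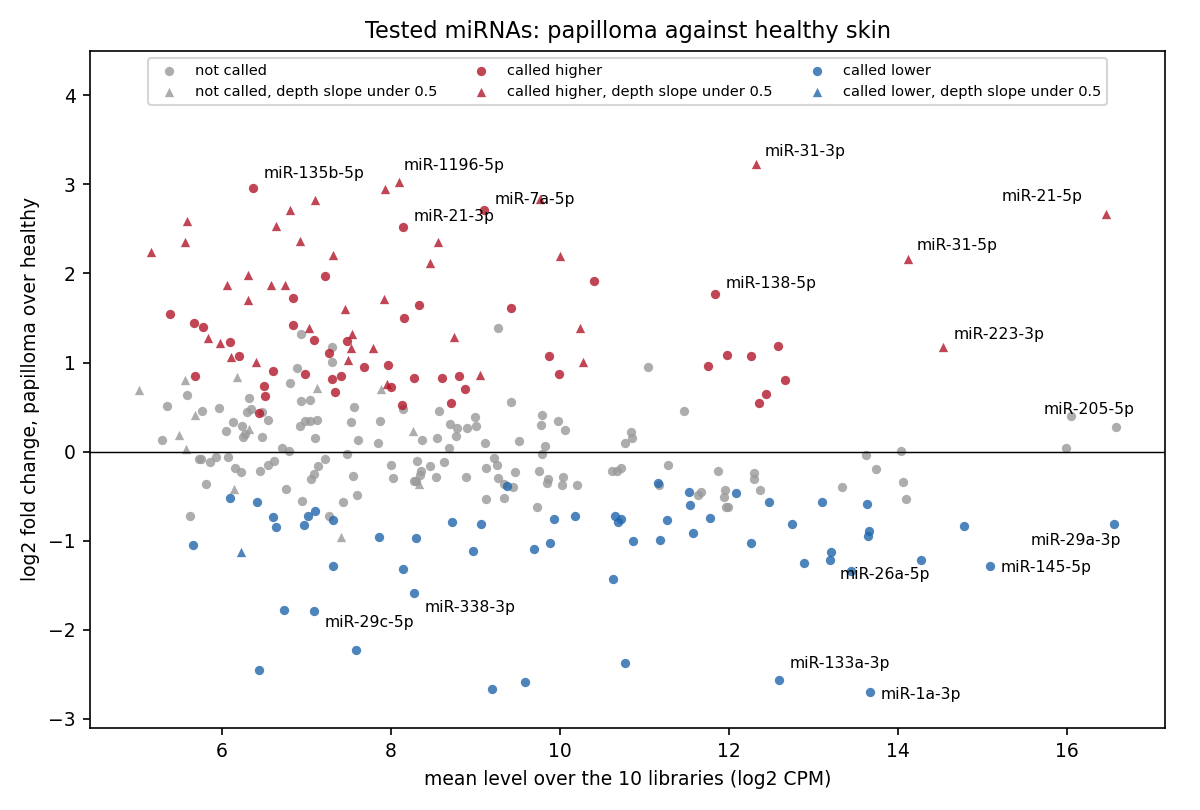
Log2 fold change of papilloma over healthy skin (vertical axis) against the mean level over the 10 libraries in log2 CPM (horizontal axis) for the 293 tested miRNAs. Red marks are the 85 called higher, blue the 60 called lower, grey the rest, and triangles have a depth slope under 0.5: 39 of them are red and 1 is blue.

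Both strands of miR-31 and of miR-21 rose. The miR-31 hairpin, which in GENCODE M21 lies in an exon of a long noncoding RNA, is known to be raised in hyperproliferative epidermis. Its 3p strand (chr4:88556480-88556504, mm9, a span 1 base longer at each end than the mature miRNA) stood at 807, 709, 2490, 656 and 265 CPM in healthy libraries 2, 3, 4, 5 and 7. In papilloma libraries 1, 3, 4, 5 and 6 it stood at 16150, 4999, 9951, 7071 and 8015 CPM. Every papilloma value exceeded every healthy one, and the log2 fold change was 3.23 ± 0.52 (SE, adjusted p = 0.000104), the largest of all tested miRNAs.

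The 5p strand of miR-31 (chr4:88556517-88556540) was the more abundant strand. It stood at 5621, 4782, 11750, 7334 and 2972 CPM in healthy skin and at 55300, 17920, 43520, 9011 and 19930 CPM in papilloma. Papilloma 5, at 9011 CPM, lay below healthy 4, and the groups overlapped there. The log2 fold change was 2.17 ± 0.60 (adjusted p = 0.00557).

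miR-21, whose hairpin overlaps an annotated exon of Vmp1 in GENCODE M21, is known to restrain Pdcd4 and to follow AP-1 activity. Its 5p strand (chr11:86397621-86397644, mm9) stood at 24490, 40680, 27030, 19040 and 11190 CPM in healthy skin. In papilloma it reached 179000, 145100, 161600, 156800 and 136100 CPM, with no overlap. It made up 2.57% of mature miRNA counts on average in healthy skin and 16% in papilloma. The log2 fold change was 2.67 ± 0.36 (adjusted p = 2.96e-05).

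The minor strand of miR-21 moved as much. miR-21-3p stood at 89.4, 125, 79.5, 82.9 and 43.5 CPM in healthy skin and at 555, 290, 510, 441 and 612 CPM in papilloma. The groups did not overlap, and the log2 fold change was 2.52 ± 0.27 (adjusted p = 2.46e-06). The raw counts of miR-21-5p were also higher in every papilloma library but 1 than in every healthy library, although the papilloma libraries were shallower: 153784 to 408046 against 43262 to 167414.

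miR-7a-5p, which is known to target the epidermal growth factor receptor in other cells, stood at 115, 214, 201, 127 and 70.1 CPM in healthy skin. In papilloma it stood at 1157, 776, 1227, 865 and 742 CPM, a log2 fold change of 2.71 ± 0.49 (adjusted p = 0.000208) without overlap. The 3p strand of its hairpin in an intron of Hnrnpk, miR-7a-1-3p, had 252 to 401 CPM in healthy skin and 300 to 410 CPM in papilloma (0.13 ± 0.20, adjusted p = 0.603). The 5p strand can also come from a second, intergenic hairpin, and the counts do not separate them.

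miR-135b-5p, from an intron of Lemd1, was nearly absent from healthy skin, at 16.8, 18.5, 11.8, 27.3 and 19.4 CPM. The papillomas were uneven, at 47.0, 19.3, 318, 170 and 180 CPM. Papilloma 3 lay within the healthy range and papillomas 4, 5 and 6 far above it. The log2 fold change was 2.96 ± 0.62 (adjusted p = 0.000662).

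miR-138-5p, a miRNA also abundant in neurons, stood at 1935, 1603, 1957, 1574 and 1246 CPM in healthy skin and at 9541, 6328, 6029, 4390 and 2052 CPM in papilloma. The groups did not overlap, although papilloma 6 came close to the healthy libraries. The log2 fold change was 1.77 ± 0.46 (adjusted p = 0.00377). The list of neural and glial miRNAs to which it belongs had 18 members in the table, of which only miR-138-5p and miR-128-3p were tested, and miR-128-3p did not pass (-0.30 ± 0.24, adjusted p = 0.314).

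miR-31, miR-21, miR-7a and miR-135b belong to a list of miRNAs that other studies found raised in squamous carcinomas. Of its 15 members 9 reached the mean of 50 CPM over the series that testing needed. miR-135b-5p, nearly absent from healthy skin, reached it only through other groups, so its rise is not independent support. Among the 9 tested members 7 rose and 0 fell, beside 29.0% higher over all tested miRNAs. The median log2 fold change of the 9 was 2.52, against 0.13 over all tested miRNAs. A depth slope under 0.5 was found for 4 of the 9, and the fit without such miRNAs called 4 of the remaining 5 higher. miR-455-3p was the weakest of the 7 (0.76 ± 0.27), and the count is 6 of 9 when scaled on 850 miRNAs. The list was drawn up with earlier results of these data known. Both strands of miR-21 and miR-132-3p were the 3 members that rose among 6 tested miRNAs known to follow ERK, AP-1 or NF-kappaB signalling. Over all tested miRNAs 29.0% were higher, and both miR-21 strands come from 1 hairpin. miR-146a-5p (-0.33 ± 0.33), miR-221-3p (-0.38 ± 0.36) and miR-222-3p did not pass. With the scaling on 850 miRNAs this list held 2 higher and 3 lower calls.

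**Figure D2:**
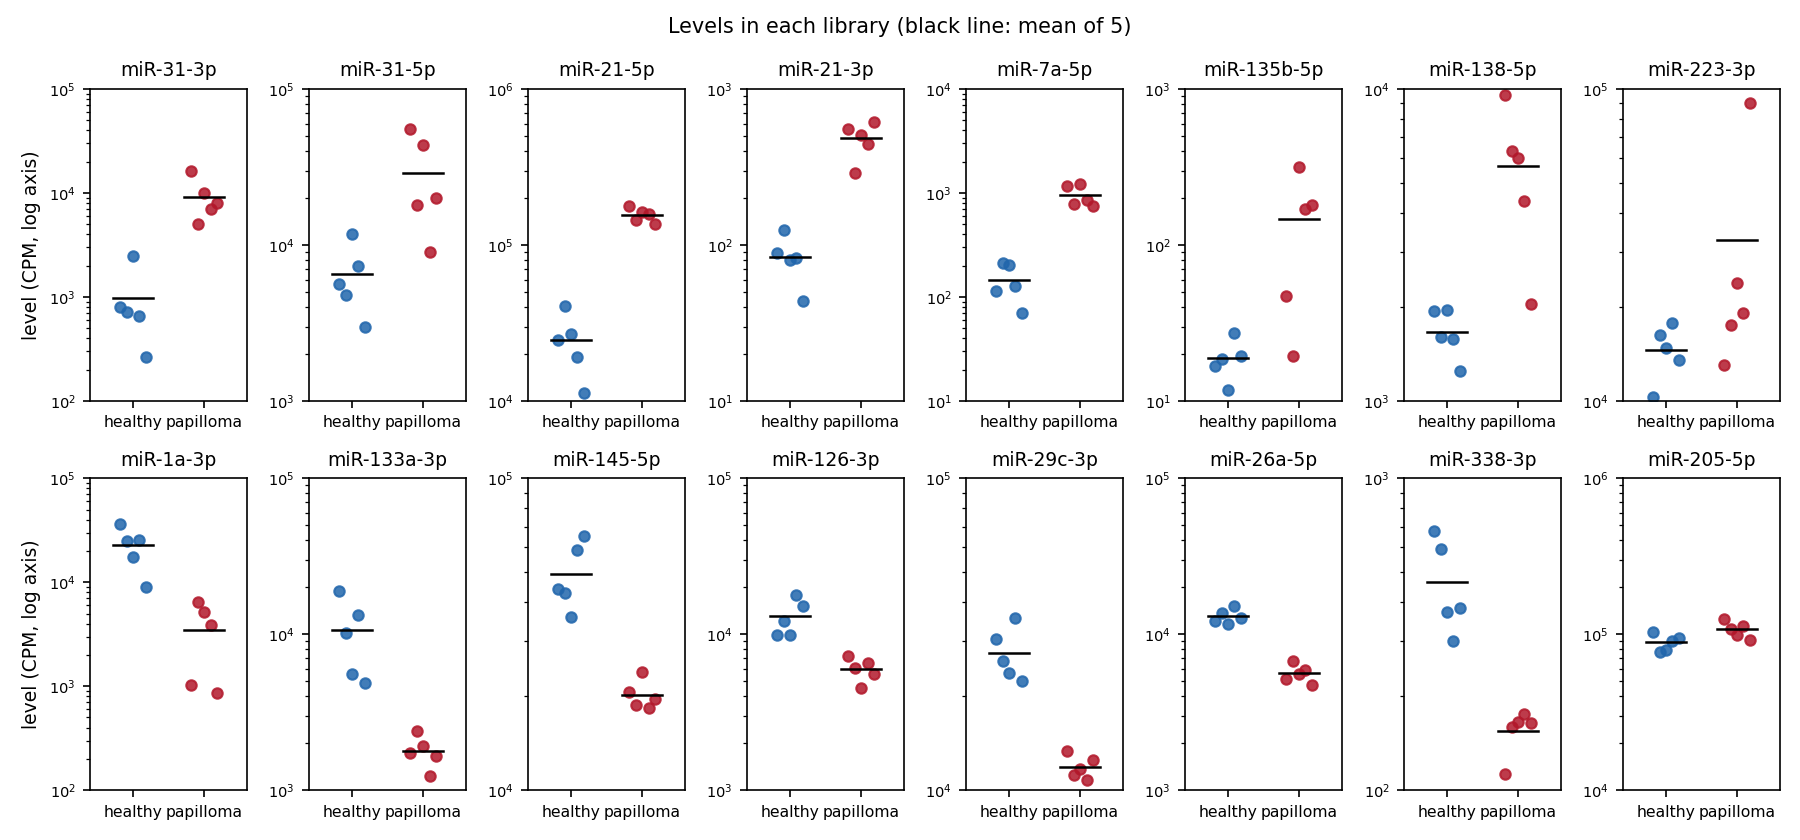
Level in CPM (log axis) of 16 miRNAs in each of the 5 healthy (blue) and 5 papilloma (red) libraries, with the mean as a black line. The papilloma libraries lie wholly above the healthy ones for miR-31-3p, both strands of miR-21, miR-7a-5p and miR-138-5p, and wholly below them for miR-1a-3p, miR-133a-3p, miR-145-5p, miR-126-3p, miR-29c-3p, miR-26a-5p and miR-338-3p.

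The deepest falls were those of striated muscle miRNAs. All 7 tested strands of miR-1a, miR-133a, miR-133b and miR-206 fell, with a median log2 fold change of -2.57, and they took the 7 largest falls of all tested miRNAs. miR-1a-3p, which promotes muscle differentiation, stood at 36470, 24800, 17290, 25440 and 8950 CPM in healthy skin and at 1028, 6427, 5178, 3854 and 860 CPM in papilloma (-2.70 ± 0.50, adjusted p = 0.000243). For miR-133a-3p the healthy libraries had 18960, 10200, 5591, 13290 and 4852 CPM, and the papillomas 1724, 2403, 1911, 1225 and 1667 CPM (-2.57 ± 0.40, adjusted p = 8.78e-05). Neither overlapped between the groups.

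The other striated muscle miRNAs followed. miR-133b-3p fell by 2.66 on the log2 scale and miR-206-3p by 2.58. miR-206-3p was the 1 member whose groups overlapped, since healthy 7 had 211 CPM and papilloma 3 had 557 CPM. The list's summed level was 16690 to 63770 CPM in healthy skin and 3538 to 10380 CPM in papilloma. Healthy 7 was the lowest healthy library for miR-1a-3p and miR-133a-3p as well. The amount of muscle in each biopsy was not measured apart from these miRNAs, and its part in the differences was not tested.

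Smooth muscle miRNAs and 1 strand of the endothelial miR-126 were lower too. miR-145-5p, which promotes the contractile state of smooth muscle, stood at 44150, 42810, 35960, 58870 and 65130 CPM in healthy skin and at 20680, 18710, 23890, 18400 and 19570 CPM in papilloma (-1.29 ± 0.21, adjusted p = 0.000104). miR-143-3p, from the same transcript, fell by 1.34 ± 0.26, and the 3 tested strands of both fell. The groups did not overlap for either of these 2 strands.

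miR-126-3p, from the endothelial gene Egfl7, stood at 9822, 12220, 9842, 17970 and 15230 CPM in healthy skin and at 7253, 6055, 4506, 6494 and 5521 CPM in papilloma (-1.13 ± 0.26, adjusted p = 0.00177). Its partner strand miR-126-5p did not pass (-0.40 ± 0.19, adjusted p = 0.0904; -1.06, adjusted p = 0.00198 when scaled on 850 miRNAs), although its groups did not overlap either. Of 10 tested fibroblast and mesenchyme miRNAs, miR-199b-5p (-0.95 ± 0.22) and miR-140-3p (-0.57 ± 0.17) fell, a share close to the 20.5% lower over all tested miRNAs. The other 8 did not pass, among them miR-199a-5p (-0.53 ± 0.27, adjusted p = 0.11). With the scaling on 850 miRNAs, 8 of the 10 fell. Among the 10, miR-199a-3p and miR-199b-3p have the same mature sequence, so both can hold the same reads.

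The abundant keratinocyte miRNAs did not pass the test. miR-205-5p, which supports epidermal progenitors, stood at 103000, 76740, 78670, 90750 and 93920 CPM in healthy skin and at 124300, 107900, 99060, 113300 and 92340 CPM in papilloma (0.28 ± 0.19, adjusted p = 0.238). miR-203-3p, a repressor of p63 known from differentiating layers, had 41660 to 77810 CPM in healthy skin and 67800 to 89280 CPM in papilloma (0.40 ± 0.25, adjusted p = 0.19). Both overlapped between the groups, and both changed sign when scaled on 850 miRNAs (-0.36 and -0.24, neither called). The minor strand miR-205-3p was the 1 of 4 members called (0.87 ± 0.28, adjusted p = 0.0163; 0.25, adjusted p = 0.5 on 850 miRNAs).

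Blood and immune cell miRNAs gave mixed results. miR-223-3p, the neutrophil miRNA, stood at 10300, 16290, 14800, 17840 and 13510 CPM in healthy skin and at 13060, 17530, 23890, 19110 and 90160 CPM in papilloma. Papilloma 6 held 90160 CPM, while the other 4 papillomas lay near the healthy range. The call (1.17 ± 0.42, adjusted p = 0.0268) ended without papilloma 6 (0.34, adjusted p = 0.339), without healthy 2 or healthy 7, and on 850 miRNAs (0.36, adjusted p = 0.409).

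Of the other myeloid miRNAs, miR-147-3p rose (2.24 ± 0.50, adjusted p = 0.00124), again with its highest level in papilloma 6, the shallowest library, at 139 CPM against 18.1 to 48.9 CPM in the other papillomas and 3.62 to 23.9 CPM in healthy skin. It reached the testing mean of 50 CPM only through libraries outside healthy skin, so its rise is not independent support. Of the 5 tested myeloid miRNAs, 2 had a depth slope under 0.5, and the fit without such miRNAs called 0 of the remaining 3. Both strands of miR-142, which is made in all blood cells, did not pass, and neither did miR-511-3p. Of 4 tested lymphoid and inflammatory miRNAs, miR-146b-5p rose (0.87 ± 0.29, adjusted p = 0.0184), and its call ended without papilloma 3 (0.61, adjusted p = 0.0763) and on 850 miRNAs (0.31, adjusted p = 0.412). miR-150-5p, the most abundant of them, did not pass (-0.49 ± 0.35, adjusted p = 0.248).

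The red cell miRNAs miR-144-5p (1.72 ± 0.52, adjusted p = 0.00982) and miR-451 (1.19 ± 0.46, adjusted p = 0.037) were higher. miR-451, which is matured by Argonaute2, stood at 2395, 1761, 5085, 4396 and 5055 CPM in healthy skin and at 11140, 2752, 13100, 7941 and 7640 CPM in papilloma. Papilloma 3 lay within the healthy range. Neither was called on 850 miRNAs (adjusted p = 0.0725 and 0.335). miR-451 was not called in 6 of the 10 fits that left out 1 library (without papilloma 1: 0.99, adjusted p = 0.107). miR-204-5p, of the melanocyte list, fell (-1.12 ± 0.30, adjusted p = 0.00461), while miR-211-5p ranged from 59.6 to 953 CPM within healthy skin and did not pass.

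Several families were lower in most or all of their strands, beside 20.5% lower over all tested miRNAs. All 5 tested strands of miR-29, known for restraining collagen genes, fell, with a median log2 fold change of -0.89, and 4 of 5 fell without papillomas 4 and 6. miR-29a-3p was the most abundant miRNA of healthy skin in this comparison, at 108100, 132000, 105300, 172800 and 96890 CPM, and stood at 70010, 75680, 73230, 66970 and 64600 CPM in papilloma (-0.81 ± 0.23, adjusted p = 0.00739). miR-29c-3p fell by 1.22 ± 0.20 and miR-29c-5p by 1.79 ± 0.30 on the log2 scale. None of the 3 overlapped between the groups.

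All 5 tested strands of miR-26 and miR-101, which restrain the histone methyltransferase Ezh2, fell (median -1.22). miR-26a-5p stood at 12230, 13750, 11580, 15130 and 12750 CPM in healthy skin and at 5154, 6722, 5555, 5923 and 4723 CPM in papilloma (-1.22 ± 0.16, adjusted p = 2.14e-05). miR-101a-3p fell by 1.44 ± 0.28 and miR-101c by 1.78 ± 0.33. The sequence of miR-101c lies wholly within that of miR-101a-3p, so both can hold the same reads. Of 7 tested miR-30 strands 6 fell, among them miR-30b-5p (-0.92 ± 0.16), miR-30a-3p (-0.77 ± 0.19) and miR-30c-5p (-0.74 ± 0.14).

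Of 8 tested members of the miR-99, miR-100 and miR-125 families 5 fell and 1, miR-99b-3p, rose. miR-99a-5p, which restrains mTOR, stood at 38690, 41490, 37080, 33970 and 28570 CPM in healthy skin and at 21490, 23930, 17620, 20070 and 17380 CPM in papilloma (-0.84 ± 0.17, adjusted p = 0.000408). miR-125a-5p fell by 1.25 ± 0.24 and miR-125b-2-3p by 1.13 ± 0.32. miR-125b-5p did not pass. The rise of miR-99b-3p (0.67 ± 0.24, adjusted p = 0.0265) was 0.02 (adjusted p = 0.963) on 850 miRNAs.

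miR-338-3p, from an intron of Aatk, stood at 675, 594, 372, 302 and 383 CPM in healthy skin and at 112, 159, 166, 175 and 164 CPM in papilloma (-1.58 ± 0.28, adjusted p = 0.000204). miR-10b-5p, from the HoxD cluster, fell by 1.001 ± 0.20, while miR-10a-5p did not pass (-0.38 ± 0.23) and miR-615-3p, from the HoxC cluster, rose (0.85 ± 0.24; 0.20, adjusted p = 0.542 on 850 miRNAs). The study singled out miR-193b and miR-365: miR-193b-3p fell by 1.02 ± 0.18 without overlap, and miR-365-3p by 0.79 ± 0.27 with overlap. That pair was chosen on these samples, so its direction is not independent evidence. The call of miR-365-3p ended without healthy 2 (adjusted p = 0.0577) and also without papilloma 6.

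Of 25 tested members of a list reported as lowered in carcinomas elsewhere, which shares members with the families above, 22 fell and 0 rose (median -0.89). The count was 24 on 850 miRNAs and 19 without papillomas 4 and 6, the shallowest 2. Of 16 tested let-7 and miR-98 strands 5 fell and 1 rose, beside 20.5% lower and 29.0% higher over all tested miRNAs. let-7c-5p fell by 0.77 ± 0.27 and let-7a-5p by 0.72 ± 0.28, and let-7g-5p, the most abundant, by 0.46 ± 0.14. The calls of let-7c-5p (-0.58, adjusted p = 0.0856) and let-7a-5p (-0.53, adjusted p = 0.132) ended without healthy 2. Each of these calls ended in 4 of the 10 fits that left out 1 library. Without papillomas 4 and 6 there was no let-7 call, and on 850 miRNAs there were 12, all lower.

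Other families were split or scarcely moved. Of 11 tested miR-15/16 strands 2 rose and 2 fell. miR-15b-5p rose by 1.07 ± 0.20, miR-15b-3p by 0.74 ± 0.26, and miR-16-5p fell by 0.56 ± 0.16. The call of miR-15b-3p ended in 4 of the 10 fits that left out 1 library. On 850 miRNAs the list held 0 higher and 5 lower calls. None of the 7 strands of the miR-23, miR-27 and miR-24 clusters passed (edgeR, 0 of 7 also at an unadjusted p under 0.05), and miR-24-3p stood at 55530 to 70810 CPM in healthy skin and 53160 to 70220 CPM in papilloma (0.04 ± 0.15, adjusted p = 0.832). On 850 miRNAs all 7 were lower, with miR-24-3p at -0.60 (adjusted p = 0.033).

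The miR-200 family, which guards the epithelial state, had 1 call among 8 (miR-200b-5p, 0.82 ± 0.31, adjusted p = 0.0349), and miR-200a-3p, its most abundant strand, did not pass (-0.43 ± 0.21). The miR-183 cluster had 1 among 4 (miR-183-3p, 1.08 ± 0.39, adjusted p = 0.0296), with miR-182-5p at -0.03 ± 0.23. miR-181c-5p (-0.81 ± 0.22) was the 1 call among 6 miR-181 strands, and miR-148b-3p (0.44 ± 0.17) the 1 among 6 strands of miR-130, miR-301 and miR-148. On 850 miRNAs these 4 lists held 0 higher calls and 3, 1, 5 and 2 lower ones. Leaving out 1 library ended the call of miR-200b-5p in 6 of 10 fits, of miR-183-3p in 4 and of miR-148b-3p in 7. miR-221 and miR-222 gave 0 calls of 2, with edgeR adjusted p = 0.396 for miR-221-3p and 0 of 2 at an unadjusted p under 0.05, and 2 lower calls on 850 miRNAs.

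The miR-17-92 cluster and its paralogues, which MYC is known to induce, were partly higher. Of 14 tested strands 6 rose and 0 fell (median 0.47), beside 29.0% higher over all tested miRNAs. miR-18a-5p stood at 560, 583, 1371, 250 and 77.9 CPM in healthy skin and at 2617, 2897, 2170, 2017 and 1023 CPM in papilloma (1.92 ± 0.55, adjusted p = 0.00724). Papilloma 6 lay below healthy 4, so the groups overlapped. miR-19a-3p rose by 1.61 ± 0.42 without overlap and miR-17-5p by 0.80 ± 0.28. On 850 miRNAs 2 of the 14 rose and 1 fell, and miR-17-5p was not called (0.19, adjusted p = 0.603). Leaving out 1 library ended the call of miR-17-5p in 3 of 10 fits.

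The p53 target miR-34a-5p stood at 2397, 2343, 3232, 1793 and 1903 CPM in healthy skin and at 5648, 4751, 4634, 4361 and 3377 CPM in papilloma (0.97 ± 0.21, adjusted p = 0.000826). Of 4 tested strands of its family 3 rose, beside 29.0% higher over all tested miRNAs. miR-34b-3p rose by 1.54 ± 0.39. Both strands of miR-210, the miRNA most known for its induction by hypoxia, rose: miR-210-3p by 1.08 ± 0.41 and miR-210-5p by 1.65 ± 0.44. On 850 miRNAs neither list held a call, with miR-34a-5p at 0.37 (adjusted p = 0.214) and miR-210-3p at 0.45 (adjusted p = 0.382). The call of miR-210-3p also ended in 7 of the 10 fits that left out 1 library (without papilloma 1: 0.86, adjusted p = 0.109).

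**Figure D3:**
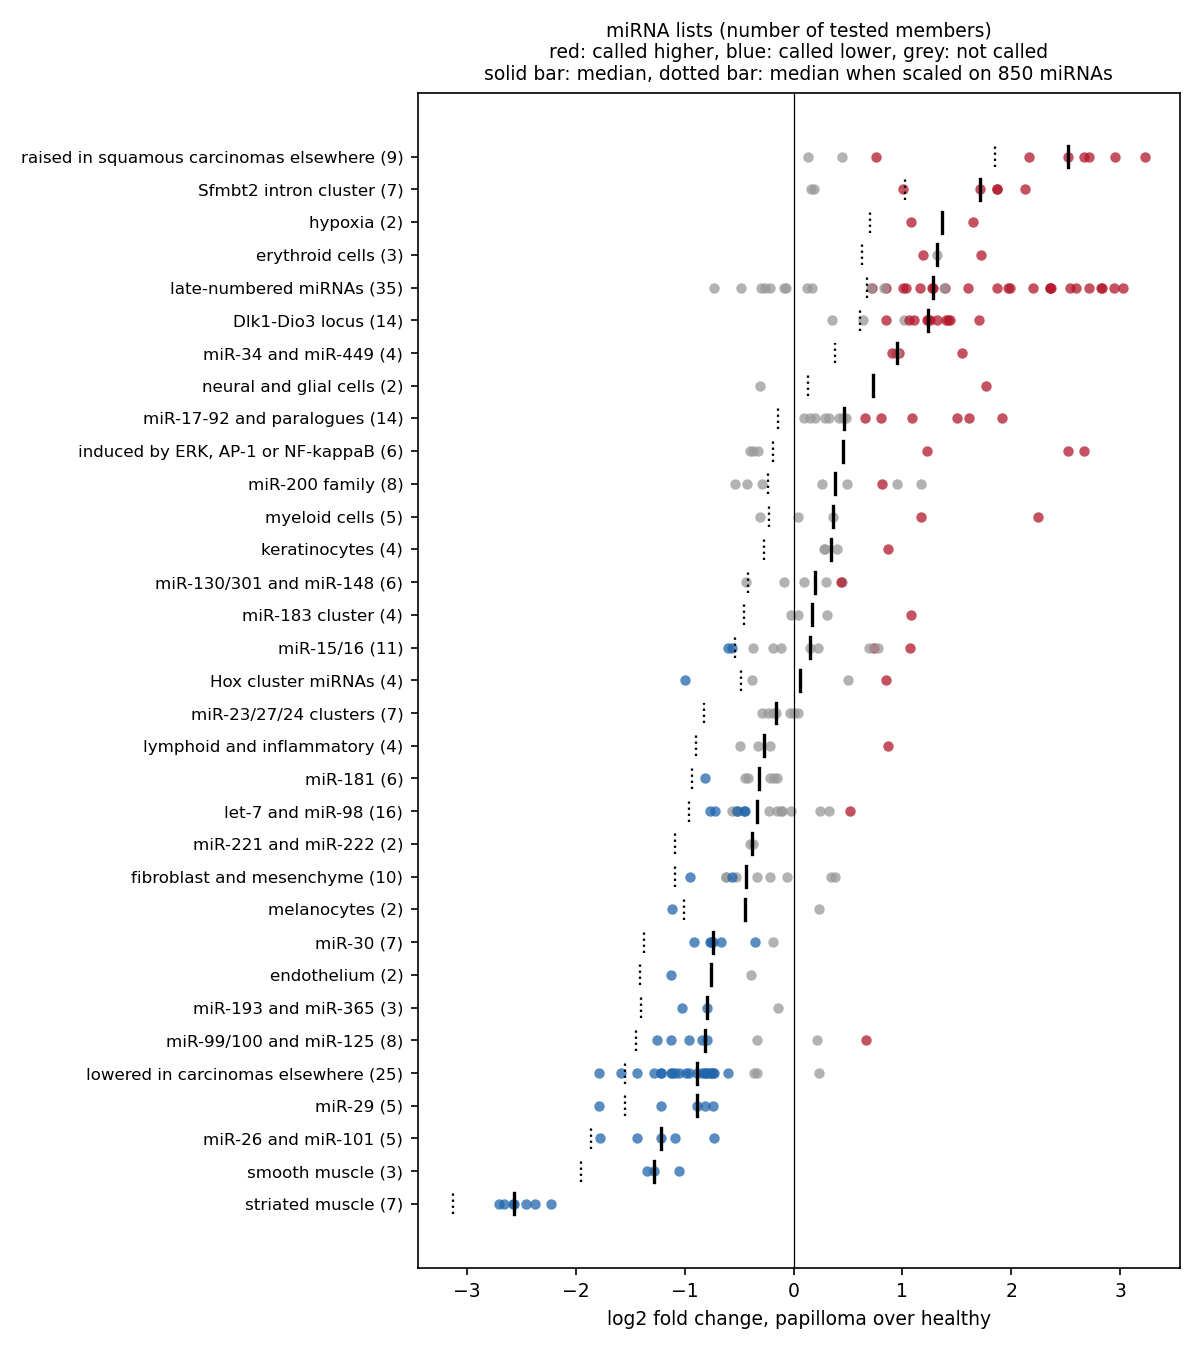
Log2 fold change (horizontal axis) of each tested member of the miRNA lists with at least 2 tested members, sorted by the list's median (solid bar); the dotted bar is the median when scaled on 850 miRNAs. The 7 striated muscle strands lie together at the lower end, and the list raised in squamous carcinomas elsewhere has the highest median, with 7 of its 9 tested members called higher.

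miRNAs of the imprinted Dlk1-Dio3 locus were higher. The miRNAs of this locus are expressed from the maternal chromosome. Of its 106 entries 14 were tested, of which 11 rose and 0 fell (median 1.23), beside 29.0% higher over all tested miRNAs. miR-494-3p rose from 30.3 to 48.7 CPM across healthy skin to 70.7 to 166 CPM in papilloma (1.70 ± 0.26, adjusted p = 8.45e-05), and miR-379-5p (1.32 ± 0.34) and miR-299-5p (1.44 ± 0.41) rose as well. On 850 miRNAs 3 of the 14 were called, and with no filter on low counts 0 were. Of the 14, 4 had a depth slope under 0.5.

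Many of the miRNAs that rose had counts that did not follow depth. Of 35 tested miRNAs with numbers of 4 digits, 23 rose and 0 fell (median 1.28), beside 29.0% higher over all tested miRNAs. Among the 35, 22 had a depth slope under 0.5. miR-1196-5p had 349, 127, 295, 271 and 191 raw counts in healthy skin and 376, 528, 865, 904 and 1136 raw counts in papilloma, where papilloma 6, the shallowest library, had the most. Its log2 fold change in CPM was 3.03 ± 0.50 (adjusted p = 0.000104) and its depth slope -0.54. miR-3473d had 169 to 298 raw counts in healthy skin and 492 to 833 in papilloma (2.94 ± 0.36, adjusted p = 1.09e-05, depth slope -0.19).

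Similar rises were those of miR-3473c (2.84 ± 0.53), miR-5115 (2.82 ± 0.70, or 1.45 with adjusted p = 0.0867 without papillomas 4 and 6), miR-1186b (2.71 ± 0.56), miR-1186 (2.59 ± 0.38), miR-1192 (2.54 ± 0.42) and miR-1946a (2.37 ± 0.41), all with depth slopes from -0.61 to 0.21. miR-3963, the most abundant of the 35, rose by 1.004 ± 0.38, and its call ended without any 1 of 7 single libraries (adjusted p = 0.0568 to 0.086). The list held 14 higher and 6 lower calls on 850 miRNAs, and only 13 of its members, 4 of them called higher, had a depth slope of at least 0.5. Of 7 tested members of the repeated miRNA cluster in an intron of Sfmbt2, which share much sequence, 5 rose (median 1.72), beside 29.0% higher over all tested miRNAs. The rises were led by miR-466i-5p (2.12 ± 0.32) and miR-669c-3p (1.87 ± 0.31). Among these 7, 6 had a depth slope under 0.5. In the fit limited to slopes of at least 0.5, the 1 remaining member was not called (0.296).

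Over all tested miRNAs, 39 of the 85 that rose and 1 of the 60 that fell, miR-125b-2-3p, had a depth slope under 0.5. Of the 85, 47 had a higher mean raw count in papilloma than in healthy skin, despite the shallower libraries, and 30 of these 47 had a depth slope under 0.5. When all miRNAs with a slope under 0.5 were left out and the rest scaled anew, 63 of 240 were higher and 50 lower. miR-21-5p and miR-31-3p are among the 30, with slopes of 0.43 and 0.44. The part of depth in these rises was not tested.

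**Figure D4:**
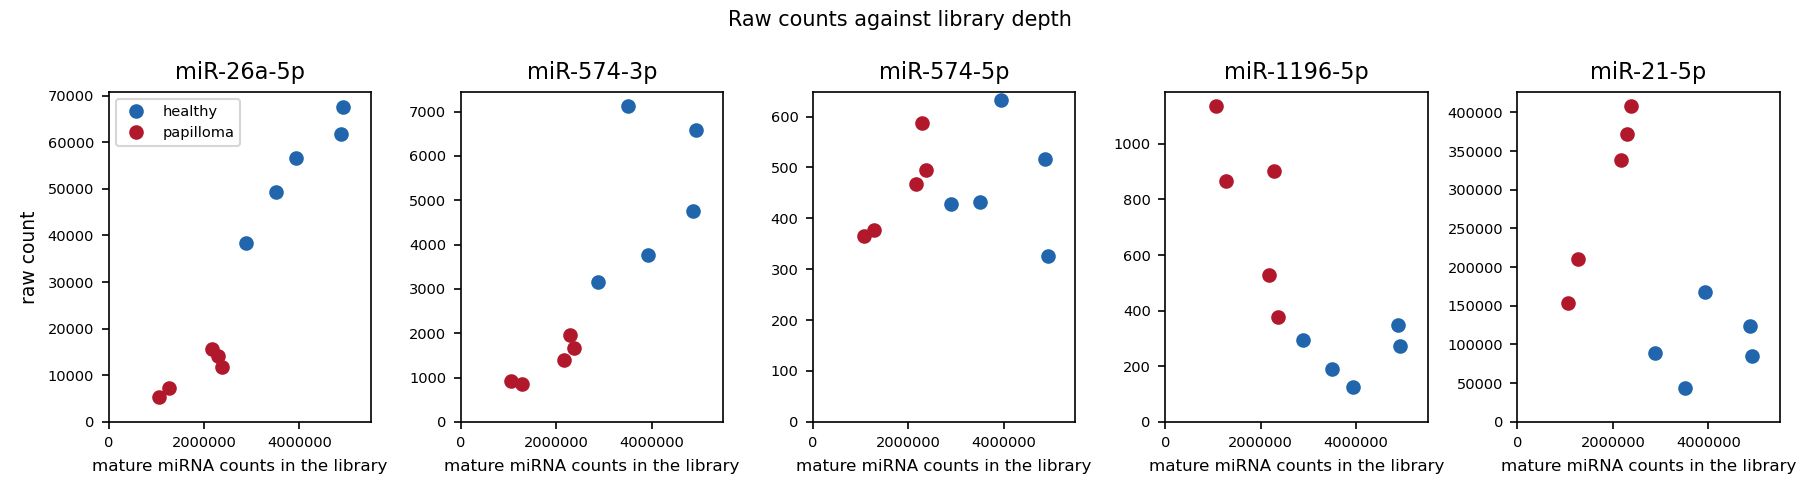
Raw count (vertical axis) against the library's mature miRNA count (horizontal axis) for 5 miRNAs in the 5 healthy (blue) and 5 papilloma (red) libraries. miR-26a-5p and miR-574-3p rise with depth, miR-574-5p stays between 326 and 633 counts in all 10 libraries, and miR-1196-5p is highest in the shallowest library.

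Summed over shared seeds, which does not depend on how reads were split between close relatives within a seed, 55 of 182 seed families were higher (30.2%) and 33 were lower (18.1%). Of 33 families with at least 2 tested members, the largest falls were those of miR-26a and miR-26b (seed UCAAGUA, -1.21 ± 0.16, adjusted p = 2.02e-05) and of miR-193 with miR-193b (ACUGGCC, -0.92 ± 0.18). The 3 miR-29 members (AGCACCA) fell from 167400 ± 36200 to 91040 ± 4565 CPM (SD, n = 5 each; -0.88 ± 0.22, edgeR adjusted p = 0.00356). Next came miR-99a, miR-99b and miR-100 (ACCCGUA, -0.77 ± 0.15), miR-30a-3p with miR-30e-3p (UUUCAGU, -0.72 ± 0.16) and miR-10a with miR-10b (ACCCUGU, -0.65 ± 0.19).

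Of these 33 families with at least 2 members, 5 rose. miR-18a and miR-18b (AAGGUGC) rose by 1.84 ± 0.54, and miR-3473d with miR-674-5p (CACUGAG) by 1.75 ± 0.29, of which miR-674-5p was not called alone. miR-92a, miR-92b, miR-25 and miR-32 (AUUGCAC) rose by 0.76 ± 0.16 with 1 member called alone, miR-92a-3p. miR-19a and miR-19b (GUGCAAA) rose by 0.75 ± 0.27, and miR-200a-5p with miR-200b-5p (AUCUUAC) by 0.72 ± 0.27. These last 2 lost their call without papilloma 1 (adjusted p = 0.109 and 0.13), and in 3 and 6 of the 10 fits that left out 1 library. The 3p strands of miR-99a and miR-99b (AAGCUCG) moved apart: miR-99a-3p fell (-0.96 ± 0.23), miR-99b-3p rose, and their sum did not pass (-0.28 ± 0.19, adjusted p = 0.217).

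The ratio of the 5p to the 3p strand of 1 hairpin needs no scaling between libraries, but depth can still move it where the strands have unlike depth slopes. The ratio changed in 8 of 58 hairpins (13.8%; limma, adjusted p under 0.05), 5 towards 5p and 3 towards 3p. In miR-31 the log2 ratio of 5p to 3p was 2.80, 2.75, 2.24, 3.48 and 3.49 in the healthy libraries. In the papillomas it was 1.78, 1.84, 2.13, 0.35 and 1.31. Every papilloma value lay below every healthy one, a change of -1.47 ± 0.36 (adjusted p = 0.00781), so miR-31-3p gained on the major strand. Papilloma 5, with the lowest ratio, also had the least miR-31-5p of the papillomas.

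let-7b (-1.003 ± 0.32, adjusted p = 0.0353) and miR-700 (-0.90 ± 0.26, adjusted p = 0.0241) also shifted towards 3p. In miR-700 the 5p strand fell by 0.57 on the log2 scale while miR-700-3p was not called (0.36). The fall of miR-700-5p was itself not called in 7 of the 10 fits that left out 1 library. Without papilloma 6 neither ratio was called (adjusted p = 0.123 and 0.0902). Leaving out 1 library ended the call of let-7b in 5 of 10 fits and that of miR-700 in 3.

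Among the 5 shifts towards 5p that of miR-574 was the largest. Its hairpin lies in an intron of Fam114a1, and the log2 ratio went from -3.20, -2.57, -2.88, -4.33 and -4.04 in healthy skin to -1.74, -1.58, -1.18, -1.73 and -1.33 in papilloma (1.89 ± 0.29, adjusted p = 6.58e-05). Its 5p strand rose by 1.16 and its 3p strand fell by 0.76 on the log2 scale. The raw counts of miR-574-5p hardly differed between the groups, at 326 to 633 in healthy skin and 365 to 587 in papilloma, while those of miR-574-3p were 3153 to 7130 and 856 to 1951.

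In miR-1196 (1.33 ± 0.29, adjusted p = 0.00316) both strands had negative depth slopes. miR-200b (1.41 ± 0.38, adjusted p = 0.017) and miR-200a (0.99 ± 0.31, adjusted p = 0.0353) shifted in the same direction, and so did miR-126 (0.71 ± 0.23, adjusted p = 0.0387), which is named because it completes the 5. Of the 10 fits that left out 1 library, 3 did not call miR-200b, with adjusted p up to 0.062, 5 did not call miR-200a, up to 0.112, and 6 did not call miR-126, up to 0.123. In miR-126 the ratio was -0.54 to 0.23 in healthy skin and 0.37 to 0.94 in papilloma, without overlap. Depth slopes of the 5p and 3p strands were 0.764 and 1.372 in miR-200b, 0.935 and 1.399 in miR-126, and 1.294 and 0.607 in let-7b. In miR-31 they were 0.443 and 0.436, and in miR-1196 -0.541 and -0.662. The part of depth in these ratios was not tested. An exact permutation test over the same 58 hairpins called none, since 5 against 5 libraries cannot give a p below 0.00794 (adjusted p = 0.0921 for the miR-574 arm ratio and the miR-31 arm ratio).

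The other small RNA classes were tested apart. Of 277 tested entries, 18 were higher (6.50%) and 9 lower (3.25%), with the library sizes of the miRNA fit, so that a change is relative to the abundant miRNAs. The median log2 fold change was 0.10. Mature miRNAs took 60.7% to 73.6% of all counts in healthy skin and 62.4% to 83.5% in papilloma, and nuclear tRNA 23.2% to 36.3% and 13.6% to 34.3%. The ranges of both shares overlapped (exact permutation test, adjusted p = 0.547 for each). Within papilloma, libraries 1 and 3 had 34.3% and 33.7% tRNA, and library 6 had 13.6%.

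Of the smaller classes, rRNA pieces made up 0.679% ± 0.063 of counts in healthy skin and 0.848% ± 0.049 in papilloma (SD, n = 5 each; exact permutation test, p = 0.00794, the smallest it allows, adjusted p = 0.0265), without overlap. Their most abundant entry lies in the mitochondrial 16S rRNA region between mitochondrial tRNA genes, and none of the 4 tested rRNA entries passed singly (edgeR; 2 had an unadjusted p under 0.05). Shares of other miRNA entries (0.00705% to 0.0337% on average) and of miscellaneous RNA (0.000721% to 0.00367%) were higher as well, with total raw counts of 354 to 431 against 456 to 948 for the first and 26 to 56 against 44 to 105 for the second. Mitochondrial tRNA did not pass (0.952% ± 0.165 against 0.664% ± 0.239, adjusted p = 0.0926), nor did snoRNA (1.2% in both groups, adjusted p = 0.968) or snRNA (adjusted p = 0.42).

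The share of piRNA entries was lower in papilloma (0.297% ± 0.063 against 0.201% ± 0.038, SD, n = 5 each; exact permutation test, adjusted p = 0.0317). Most of these counts are also counted in snoRNA entries that the piRNA entries overlap. When overlapping entries were counted once, the piRNA share was 0.0038% in healthy skin and 0.00776% in papilloma, in the opposite direction (adjusted p = 0.0476). Other tRNA entries were lower (0.0131% against 0.00701%, adjusted p = 0.0317). Each of these class calls ended in at least 5 of the 10 tests that left out 1 library. An exact test of 4 against 5 libraries has fewer splits, so these losses alone do not show dependence on 1 library. The rRNA difference stayed between 0.151 and 0.192 percentage points in all of them.

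**Figure D5:**
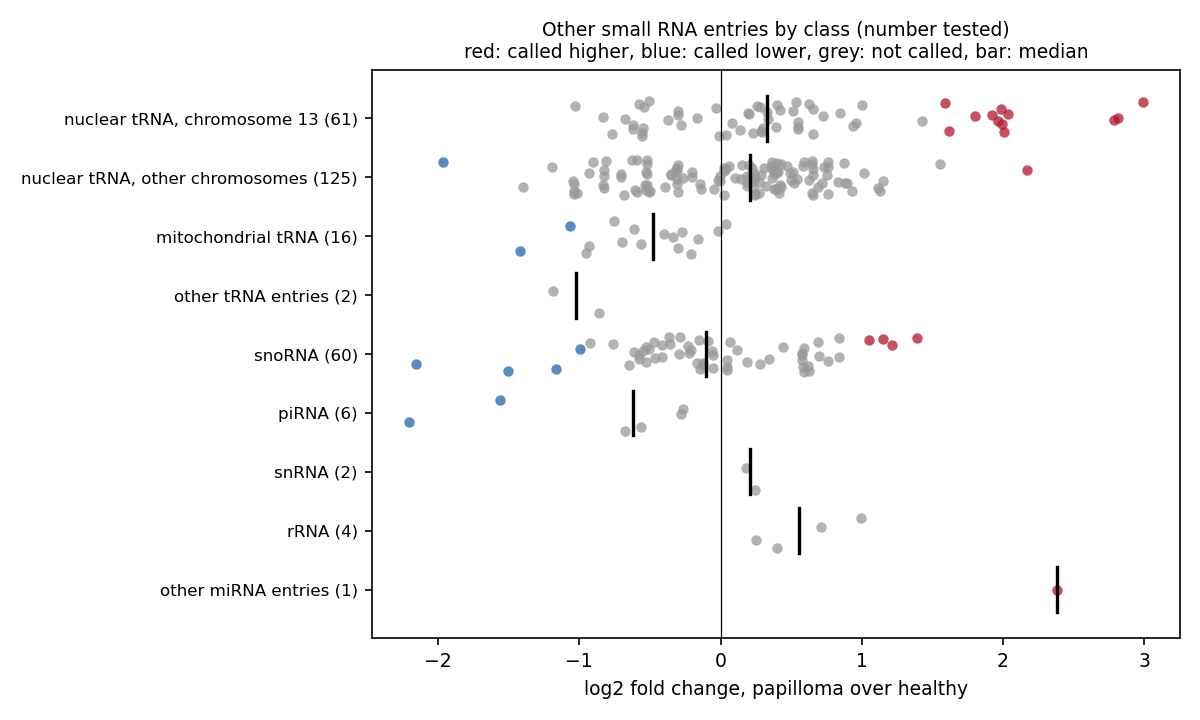
Log2 fold change of papilloma over healthy skin (horizontal axis) for the 277 tested entries of other small RNA classes, with the class median as a bar. Of 61 nuclear tRNA entries on chromosome 13, 12 are called higher (red), against 1 of 125 on other chromosomes.

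Of 186 tested nuclear tRNA entries 13 were higher, a share close to the 6.50% over all other small RNA entries, and 12 of these 13 lie on chromosome 13 between 21332813 and 23610096 (mm9), in the tRNA gene cluster beside the histone genes. Of 61 tested entries on that chromosome 12 were higher (19.7%), against 1 of 125 on others (0.8%). The medians of all tested entries there and elsewhere were close, at 0.33 and 0.21 on the log2 scale. Some of these entries share reads. Entries with overlapping spans, or with 1 anticodon and near-equal counts, were counted once: 11 of 50 on chromosome 13 and 1 of 78 elsewhere were then higher. The 11 still hold chr13.tRNA97-ValCAC apart from chr13.tRNA93-ValAAC, although their counts were nearly the same.

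The largest of these rises was that of chr13.tRNA73-ThrTGT (chr13:21367824-21367898), a threonine tRNA with anticodon TGT. It stood at 6.73, 6.07, 18.8, 7.60 and 11.4 CPM in healthy skin and at 67.6, 49.3, 168, 77.2 and 39.0 CPM in papilloma (2.99 ± 0.56, adjusted p = 0.000654). The alanine tRNA chr13.tRNA68-AlaTGC (chr13:21332813-21332885) stood at 31.3, 27.2, 92.5, 53.2 and 31.8 CPM in healthy skin and at 346, 190, 520, 329 and 276 CPM in papilloma (2.82 ± 0.44, adjusted p = 0.000141). The groups overlapped for neither. Healthy 4 was the highest healthy library for both.

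The lysine tRNA chr13.tRNA83-LysTTT rose by 2.78 ± 0.46, the alanine tRNA chr13.tRNA69-AlaAGC by 2.004 ± 0.42, the isoleucine tRNA chr13.tRNA987-IleTAT by 1.92 ± 0.41, and the serine tRNAs chr13.tRNA980-SerAGA by 1.61 ± 0.40 and chr13.tRNA112-SerTGA by 1.59 ± 0.42. The call of the last ended without papilloma 4 (1.16, adjusted p = 0.0642).

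Valine tRNAs were also among the entries that rose. The most abundant tested entries of the valine anticodons AAC and CAC, chr13.tRNA974-ValAAC and chr13.tRNA91-ValCAC, lie on chromosome 13 too and were not called. chr13.tRNA93-ValAAC stood at 1029, 2749, 2763, 1523 and 912 CPM in healthy skin and at 8134, 5662, 12600, 5692 and 3505 CPM in papilloma (1.99 ± 0.46, adjusted p = 0.00348), without overlap. chr13.tRNA962-ValAAC and chr13.tRNA97-ValCAC had nearly the same counts in every library (log2 fold changes 1.996 and 1.97), so the 3 entries are given as 1 result. chr13.tRNA95-ValAAC (2.04 ± 0.50) and chr13.tRNA965-ValAAC (1.80 ± 0.46) rose at lower levels. Over 7 tested entries with anticodon AAC the log2 fold change ranged from -0.83 to 2.04, and 4 of the 7 were called.

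Glycine tRNAs with anticodon CCC moved in both directions. chr4.tRNA67-GlyCCC (chr4:32317224-32317295) stood at 109, 137, 171, 103 and 160 CPM in healthy skin and at 1165, 819, 660, 250 and 161 CPM in papilloma (2.17 ± 0.43, adjusted p = 0.000833), with papilloma 6 in the healthy range. chr17.tRNA113-GlyCCC (chr17:26012032-26012103) stood at 3133, 3053, 11020, 5837 and 13360 CPM in healthy skin and at 2249, 2370, 3035, 1188 and 488 CPM in papilloma (-1.96 ± 0.50, adjusted p = 0.00681). The groups did not overlap there, and papilloma 4, at 3035 CPM, lay just under healthy 3. No other nuclear tRNA entry fell.

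The most abundant tRNA entry, chr11.tRNA945-ArgCCG, ranged from 9031 to 35180 CPM within healthy skin and from 2210 to 28000 CPM within papilloma and did not pass (-0.53 ± 0.53). By anticodon, medians of the tested entries ranged from -1.03 for lysine CTT to 1.92 for the single isoleucine TAT entry.

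Of 16 tested mitochondrial tRNAs 2 fell and 0 rose (median -0.48). mt-Tw, the tryptophan tRNA (chrM:4950-5016), stood at 300.7, 287, 379, 620 and 1330 CPM in healthy skin and at 316, 286, 203, 152 and 132 CPM in papilloma (-1.42 ± 0.39, adjusted p = 0.0142), and papilloma 1 lay within the healthy range, with papilloma 3 just below it. Its call ended without healthy 7 (-0.86, adjusted p = 0.124). mt-Th, the histidine tRNA, fell by 1.06 ± 0.33 and lost its call in 5 of 10 fits that left out a library. The most abundant one, mt-Tm for methionine, did not pass (-0.33 ± 0.49).

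Of 60 tested snoRNA entries 4 rose and 4 fell (median -0.105), beside 6.50% higher and 3.25% lower over all other small RNA entries. These entries carry database numbers and no gene names in the files, so they are given by position (mm9). FR140401 (chr4:130305553-130305617) stood at 192, 217, 171, 310 and 345 CPM in healthy skin and at 89.1, 71.2, 42.9, 35.8 and 37.2 CPM in papilloma (-2.15 ± 0.36, adjusted p = 0.000141). The piRNA entry FR139333 lies inside it, held nearly the same reads and fell likewise (-2.21 ± 0.37), so both are 1 result. The same holds for snoRNA FR102267 (chr2:130103752-130103823, -1.50 ± 0.35, adjusted p = 0.00348) and piRNA FR224734 (-1.56 ± 0.35). Neither pair overlapped between the groups.

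FR151841 (-1.17 ± 0.35, adjusted p = 0.0278) and FR109032 (-0.997 ± 0.32, adjusted p = 0.0425) fell less. FR109032 lies inside the snoRNA entry FR137451, which holds more reads and did not pass (-0.285 ± 0.28), so that with overlapping entries counted once this fall was not called. FR067717 (chr3:123210855-123210984) rose from 32.3, 23.6, 35.7, 28.8 and 72.2 CPM to 116, 123, 94.2, 96.1 and 74.4 CPM (1.39 ± 0.33, adjusted p = 0.0042). FR354359 rose by 1.21 ± 0.35, FR165730 by 1.15 ± 0.33 and FR350047 by 1.05 ± 0.26. The calls of FR354359 (0.97, adjusted p = 0.0811) and FR165730 (0.81, adjusted p = 0.107) ended without papilloma 1, and that of FR151841 without healthy 7 (-0.93, adjusted p = 0.124). Leaving out 1 library ended the call of FR354359 in 3 of 10 fits, of FR165730 in 4 and of FR151841 in 4. The most abundant snoRNA entry, FR283278, did not pass (-0.55 ± 0.42).

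The single tested entry of other miRNA annotation, the hairpin Mir1946a (chr16:32267450-32267583, in GRCm38 coordinates, unlike the entries above), rose by 2.38 ± 0.47 (adjusted p = 0.000833) with a depth slope of -0.64. Its raw counts were 99 to 196 in healthy skin and 132 to 382 in papilloma. The mature miR-1946a rose by 2.37. Neither tested snRNA passed, with the more abundant, FR171679, at 0.24 ± 0.36, and neither did the tested entries of other tRNA annotation, with FR076063 at -0.86 ± 0.37.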

How the data were processed

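Total RNA of skin was made into small RNA libraries, size-selected on gels and read on the SOLiD instrument, per the labels' protocols. The authors deposited 1 table of raw read counts per small RNA feature and library, in mm9 per the submitters' processing notes. No label names the aligner or the counter (not given in the sources used here). Entries with Ensembl identifiers on nuclear chromosomes carry GRCm38 coordinates, and reads of overlapping or near-identical entries can appear under each entry. Columns were matched to samples by title.

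Counts were tested with edgeR 4.0.16 (quasi-likelihood F test, two-sided, R 4.3.3) on all 20 libraries with a term per group, so that 4 groups share the estimate of spread. Features needed a mean of 50 CPM. TMM factors came from the 293 tested miRNAs and served the other classes and seed sums too. Strand ratios, log2((5p + 0.5)/(3p + 0.5)), were tested with limma 3.58.1 and class shares with an exact permutation test over 10 libraries. P-values were adjusted by the Benjamini-Hochberg method over each table, with 0.05 as the threshold. SE were derived from the F statistic. Sequences of 242 of the 293 miRNAs were matched in RefSeq by name (227) or synonym (15). Alternatives were other scalings (with every miRNA that filterByExpr keeps, with no filter, DESeq2 1.42.0 size factors, total counts), other minimum levels, DESeq2's test, a replicate block, thinning, and leaving out each library. The fits by depth slope, without the 2 shallowest papillomas and with overlapping entries counted once were chosen after seeing the data. Scripts were tested on simulated counts.

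The comparison, its 34 lists and the alternatives were chosen with earlier results of these data known. Named miRNAs were the 12 largest changes each way, the 5 most abundant, and of each list the 2 largest called changes and the most abundant member. In other classes they were the 3 largest called changes each way and the most abundant entry, among strand ratios the 4 largest each way, and among seed families of at least 2 members the 6 largest each way and any whose call differed from all its members. Apart from those named above, the most abundant tRNA entries per anticodon are given only as ranges. miR-31-5p, miR-7a-1-3p, miR-1946a, the strands of miR-574 and miR-700, miR-455-3p, miR-128-3p, miR-211-5p, miR-146a-5p, miR-125b-5p, both strands of miR-99b and miR-99a-3p, FR109032, FR137451 and FR350047 were added after their values were seen.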

Additional observations from a re-analysis of the deposited data

Results flagged for a closer look

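Of 302 groups of 5 libraries checked, 10 held a library that stood apart from the other 4 beyond Dixon's 95% critical value, and chance gives about 1 in 20. Among miRNA levels, miR-1a-1-5p stood at 360.5 CPM in papilloma 5 against 585.3 to 643.6 CPM in the other papillomas. miR-338-3p stood at 112.3 CPM in papilloma 1 against 159.1 to 175 CPM, and miR-199a-5p at 12270 CPM in papilloma 1 against 14250 to 15090 CPM. Papilloma 3 was low for miR-144-5p, at 58.31 CPM against 173.5 to 226.8 CPM, and for miR-221-3p, at 328 CPM against 907.4 to 1244 CPM. Papilloma 6 had 53160 CPM of miR-24-3p against 67090 to 70220 CPM. In healthy skin, library 4 had 10190 CPM of miR-143-3p against 16310 to 18480 CPM.

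The log2 strand ratio of miR-1196 was 0.2144 in papilloma 1 and 0.8318 to 1.066 in the other papillomas. The summed level of the seed GUGCAAA was 9547 CPM in papilloma 1 and 7185 to 7675 CPM in the others. The snRNA share was 0.04954% in healthy 7 and 0.01903% to 0.02287% in the other healthy libraries.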

How the results depend on the processing

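Scaling was the choice that moved most. With every miRNA that edgeR's filterByExpr keeps, 204 of 850 were higher and 176 lower, and without a filter 211 of 1137 were lower. The signs that turned with filterByExpr were those of miR-205-5p (-0.36), miR-203-3p (-0.24), miR-24-3p (-0.60), miR-148b-3p (-0.20), miR-7a-1-3p (-0.52) and miR-700-3p (-0.33). Without a filter they were miR-205-5p (-0.73), miR-203-3p (-0.60), miR-24-3p (-0.98), miR-223-3p (-0.066), miR-146b-5p (-0.049), miR-205-3p (-0.13), miR-200b-5p (-0.19), miR-17-5p (-0.16), miR-34a-5p (-0.004), miR-15b-3p (-0.26), miR-148b-3p (-0.575), miR-615-3p (-0.16), miR-7a-1-3p (-0.89) and miR-700-3p (-0.70). miR-24-3p, near 0, also turned with DESeq2's size factors and DESeq2's test (-0.09 each), library sizes without the top 5 (-0.051), only these 10 libraries (-0.056), thinning to equal depth (-0.039), and without papilloma 1 (-0.048) or healthy 7 (-0.01). miR-182-5p turned at a minimum of 200 CPM (0.15), with the replicate block (0.091), with depth slopes of at least 0.5 (0.101), without papillomas 4 and 6 (0.066), and without papilloma 4 (0.001), papilloma 6 (0.016) or healthy 4 (0.05). Without single libraries, miR-24-3p ranged up to 0.103 and miR-7a-1-3p from -0.023 (papilloma 1) to 0.236. A minimum of 200 CPM gave 53 higher and 36 lower of 173, and a test against a log2 change of 1 gave 24 and 9. Other small RNAs gave 45 higher with TMM factors of their own, 78 higher and 21 lower with filterByExpr, 8 and 3 at 200 CPM, and 15 lower with DESeq2 or thinning. They gave 5 lower with only 10 libraries or without papillomas 4 and 6. Strand ratios gave 11 towards 5p and 9 towards 3p at 10 CPM, 1 towards 5p at 200 CPM, 0 either way with the exact test, and 3 towards 5p with depth slopes of at least 0.5. FR171679 turned to -0.004 without papillomas 4 and 6, and without single libraries it ranged from -0.018 to 0.595. The difference in snoRNA share ranged from -0.0599 to 0.0683 percentage points without single libraries, and that in the share of piRNA turned to 0.00396 with overlapping entries counted once. Lower class calls numbered 1 relative to mature miRNA counts and 1 with overlapping entries counted once.

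Leaving out each library in turn gave 66 to 86 higher and 51 to 64 lower miRNAs, 16 to 28 and 5 to 17 other small RNAs, 2 to 5 and 1 to 3 strand ratios, 43 to 57 and 27 to 34 seed families, and 0 to 3 and 0 to 2 classes. The replicate numbers 3, 4 and 5 occur in both groups, and the correlations of same-numbered deviations were 0.41, -0.06 and -0.18. Of 6 libraries 2 correlated best with their own number, papilloma 3 and healthy 3. With only 3 pairs this cannot decide whether equal numbers mark a shared origin, and the main tests treat the libraries as unpaired. With a replicate block, 73 miRNAs were higher and 47 lower, 4 other small RNAs were lower, and 3 strand ratios moved towards 5p and 1 towards 3p. The papilloma libraries are the shallower ones, so depth and lesion cannot be told apart.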
